A study of Mus musculus with 6 samples.

Results

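The MHC class II pathway was described through 9 genes out of the 55536 Ensembl gene IDs measured: the class II chains H2-Aa, H2-Ab1 and H2-Eb1, the invariant chain Cd74, the peptide-loading chains H2-DMa, H2-DMb1, H2-DMb2 and H2-Oa, and the transactivator Ciita. They were chosen by name as genes of the pathway, with earlier results of these data known, and all 9 were found in the mouse annotation GENCODE M21. Total RNA was sequenced in bulk from RAW264.7 cells, immortalised mouse macrophages able to form osteoclasts under the cytokine RANKL. Both groups received RANKL at 50 ng/mL, and 1 group additionally received etelcalcetide at 4 µM, a peptide agonist of the calcium-sensing receptor. There were 3 libraries with RANKL+etelcalcetide and 3 with RANKL, and none of the 6 was without RANKL. Exposure lasted 5 days according to the series design, but the labels of replicates 1, 2 and 3 of each group give 5, 6 and 7 days, so the durations are uncertain. The labels do not say whether replicates were separate cultures, and p-values therefore measure the spread between libraries, which may be technical. RAW264.7 comes from BALB/c mice, whereas the reference genome is that of C57BL/6, so reads of these polymorphic genes were counted against another haplotype in both groups. Recovered reads numbered 13742913 to 16264432 per RANKL+etelcalcetide library and 14530043 to 15877596 per RANKL library.

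Class II molecules carry peptides from the endosomes to the cell surface, where CD4+ T cells read them. An alpha and a beta chain pair in the endoplasmic reticulum around the invariant chain CD74, which fills the groove; cathepsins then degrade CD74 and H2-M exchanges its last fragment for a peptide, a step that H2-O inhibits. CIITA does not bind DNA itself: it is recruited by RFX, CREB and NF-Y proteins sitting on the X and Y boxes of class II promoters, and it is the limiting switch of the pathway in most cells.

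The X and Y boxes are shown here because H2-Aa and H2-Eb1 fell and H2-Oa rose under the same treatment; H2-DMb1, H2-DMb2 and H2-Ob, which were not tested or did not pass, are shown beside them. RefSeq promoter sequences (GRCm38.p6, 250 bases before to 50 after the start) were matched for 6 of the 9 members: H2-Aa, H2-Eb1, H2-DMa, H2-DMb1, H2-DMb2 and H2-Oa. H2-Ab1, Ciita and Cd74 were not among the matches. The letters GATTGG on either strand, the Y box, occurred in a promoter window of all 6, against 16.1% of 32851 promoters. The letters AGNNACNGA on either strand, taken as an X box, occurred in 17.7% of promoters, and an X box 10 to 30 bases ahead of a Y box on the same strand occurred in 2 of the 6, H2-Eb1 and H2-DMb1, against 36 promoters in all (0.110%). A shorter X core, GNAAC, 15 to 35 bases ahead of the Y box was chosen after the sequences had been seen; it held for 4 of the 6 and for H2-Ob, and for 396 promoters in all (1.21%). The core alone occurred in 84.8% of promoters and overlaps the longer X box. Each line gives 68 bases read 5′ to 3′ on the strand of the gene and lined up on the Y box, with the X core and the Y box in capitals. The windows are chr17:34287857-34287924 (minus strand) for H2-Aa and, on the plus strand, chr17:34305755-34305822 for H2-Eb1, chr17:34092283-34092350 for H2-Oa, chr17:34238795-34238862 for H2-Ob, chr17:34153077-34153144 for H2-DMb1 and chr17:34145106-34145173 for H2-DMb2.
H2-Aa: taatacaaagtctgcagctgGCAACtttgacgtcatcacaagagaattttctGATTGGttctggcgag
H2-Eb1: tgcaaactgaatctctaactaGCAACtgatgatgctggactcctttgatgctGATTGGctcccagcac
H2-Oa: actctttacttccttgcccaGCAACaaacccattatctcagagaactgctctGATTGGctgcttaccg
H2-Ob: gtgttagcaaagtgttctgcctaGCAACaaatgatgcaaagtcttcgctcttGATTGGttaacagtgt
H2-DMb1: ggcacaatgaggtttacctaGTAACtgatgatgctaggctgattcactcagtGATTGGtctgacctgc
H2-DMb2: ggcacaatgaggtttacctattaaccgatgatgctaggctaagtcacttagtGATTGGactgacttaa
No core stood ahead of a Y box at this spacing in H2-DMb2 or H2-DMa. The core chosen afterwards stood ahead of a Y box in H2-Aa and H2-Eb1, whose RNA fell with etelcalcetide, and in H2-Oa, whose RNA rose. H2-DMa, whose RNA also rose, lacked it. With the longer X box, only H2-Eb1 of these genes had the pair. Whether the arrangement bears on the direction of change was not tested. These matches describe letters and are not evidence of binding.

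Ciita, the transactivator (chromosome 16, 10480059 to 10528418, plus strand), was scarce in all 6 libraries. It had 5, 17 and 16 reads in RANKL+etelcalcetide replicates 1, 2 and 3, against 26, 28 and 21 in the RANKL replicates. In FPKM, which scale reads by exon length and library total, this was 0.0340, 0.130 and 0.103 FPKM with etelcalcetide, against 0.179, 0.185 and 0.152 FPKM with RANKL alone, and the groups did not overlap. Summed over libraries, 38 reads stood against 75, a depth-adjusted ratio of 0.481 with a 95% interval of 0.317 to 0.721 that covers counting error only. Ciita did not reach the minimum for testing, which was 0.5 FPKM and 10 reads in at least 3 libraries. With no minimum, limma gave a log2 difference of -0.60 and an adjusted p of 0.199, whereas limma-voom on the reads gave -1.21 and 0.0328, so the call depends on the model. Without etelcalcetide replicate 1, which had 5 reads, the log2 difference was -0.37. In bulk RNA, fewer cells expressing a gene and less RNA per cell cannot be told apart, here and in all that follows.

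Of the 9 members, 7 reached the minimum and were tested. With limma and Benjamini-Hochberg adjustment over 11120 genes at 0.05, 3 were higher with etelcalcetide (H2-Oa, Cd74 and H2-DMa), 3 were lower (H2-Aa, H2-Eb1 and H2-Ab1) and 1, H2-DMb2, did not pass. Across all tested genes 53% changed, 26% higher and 27% lower, so a change as such does not set the members apart. The share of all tested genes whose groups did not overlap is not given here. A lack of overlap, in Ciita or in any gene below, therefore does not set that gene apart either. The members went both ways: their median log2 fold change of 0.47, beside -0.01 over all genes tested, is the value of H2-DMb2, which was -0.05 without RANKL replicate 1. Every fold change was taken after adding 0.1 FPKM, so that changes of scarce genes come out too small.

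**Figure D1:**
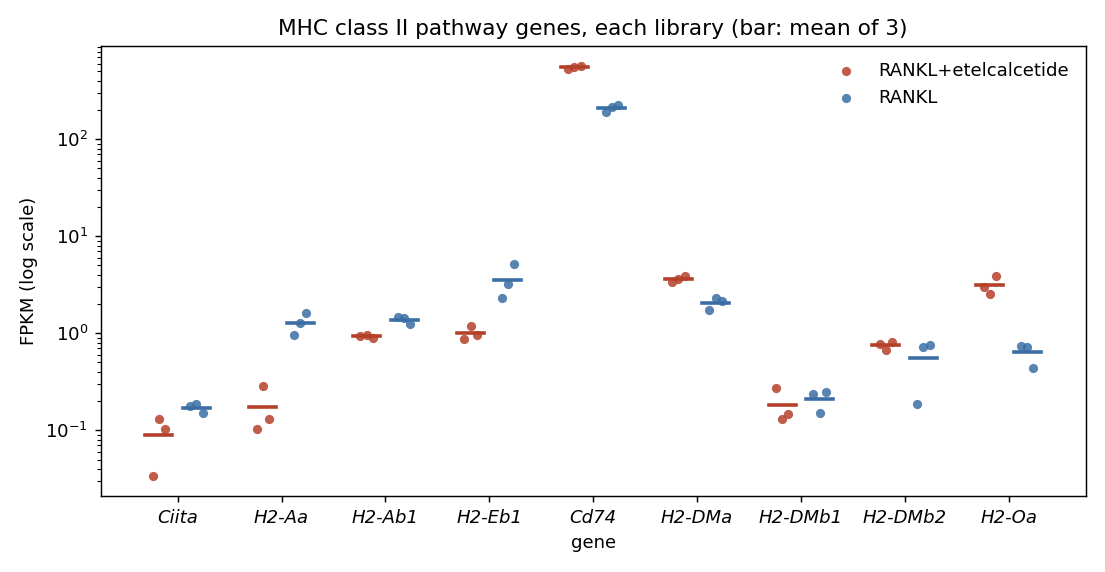
Deposited FPKM of the 9 genes on a log axis, 1 point per library and a bar at the mean of 3, with RANKL+etelcalcetide left of RANKL for each gene. Cd74 stands at 192 to 562 FPKM, far above the other genes, which lie between 0.0340 and 5.13 FPKM.

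The antigen-presenting chains fell. H2-Aa, the alpha chain of I-A (chromosome 17, 34282744 to 34287823, minus strand), had 0.102, 0.287 and 0.130 FPKM in RANKL+etelcalcetide libraries, against 0.966, 1.26 and 1.61 FPKM in RANKL libraries. These values rest on 6, 15 and 8 reads against 56, 76 and 89, so the gene passed the minimum only through the RANKL libraries. The groups did not overlap, and the highest etelcalcetide library lay below every RANKL library by a wide margin. Its log2 fold change was -2.43 (SE 0.296, limma adjusted p 0.000193), with mean levels of 0.173 ± 0.0999 FPKM with etelcalcetide and 1.28 ± 0.324 FPKM with RANKL alone (SD, n = 3 each).

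H2-Ab1, the I-A beta chain that pairs with H2-Aa (chromosome 17, 34257689 to 34269419, plus strand), fell less. It had 0.934, 0.963 and 0.886 FPKM with etelcalcetide and 1.45, 1.45 and 1.23 FPKM with RANKL alone, from 34 to 37 against 46 to 59 reads. The libraries of each group lay close together and the groups did not overlap. Its log2 fold change was -0.59 (SE 0.142, limma adjusted p 0.00711). The call was lost when the replicate block was combined with no minimum (adjusted p 0.0944).

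H2-Eb1, the beta chain of I-E (chromosome 17, 34305867 to 34316674, plus strand), had 0.867, 1.20 and 0.949 FPKM with etelcalcetide, against 2.29, 3.21 and 5.13 FPKM with RANKL alone. The RANKL libraries differed among themselves by 2.24-fold, yet all lay above the etelcalcetide libraries. The RANKL values rose in the order of the labels, 5, 6 and 7 days, whereas those with etelcalcetide did not. An effect of duration was not tested. Its log2 fold change was -1.73 (SE 0.259, limma adjusted p 0.000606). The alpha chain of I-E is annotated as H2-Ea-ps, a polymorphic pseudogene, because C57BL/6 mice do not express it; BALB/c mice do. H2-Ea-ps had 0.813, 0.421 and 0.178 FPKM with etelcalcetide and 2.02, 2.43 and 2.79 FPKM with RANKL alone, with no overlap (log2 fold change -2.36, SE 0.368, limma adjusted p 0.000763). Both chains of I-A and both of I-E were thus lower with etelcalcetide. H2-Eb2, a second E beta gene, had no read in any library.

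Cd74 moved the other way. The invariant chain (chromosome 18, 60803848 to 60812652, plus strand) had 534, 558 and 562 FPKM in RANKL+etelcalcetide libraries, against 192, 214 and 227 FPKM in RANKL libraries. The groups stood well apart, and within each the libraries differed by at most 1.18-fold. Mean levels were 551 ± 15.4 FPKM with etelcalcetide and 211 ± 17.7 FPKM with RANKL alone (SD, n = 3 each), a 2.61-fold difference of means. The log2 fold change was 1.31 (SE 0.0678, limma adjusted p 1.39e-06). Cd74 ranked between 73 and 207 among all genes by FPKM in the 6 libraries, the only member at such a level.

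**Figure D2:**
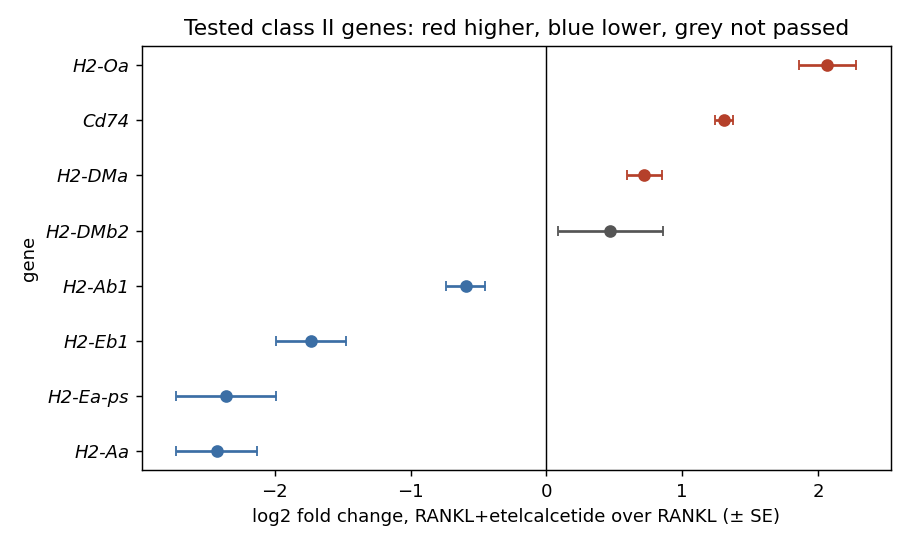
Log2 fold change of RANKL+etelcalcetide over RANKL (x axis, bars ± SE) for the 7 tested members and H2-Ea-ps, ordered by size. H2-Oa, Cd74 and H2-DMa lie to the right, H2-Ab1, H2-Eb1, H2-Ea-ps and H2-Aa to the left, and H2-DMb2 did not pass.

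Among the 4 peptide-loading genes, H2-DMa and H2-Oa were higher, H2-DMb2 did not pass and H2-DMb1 was too scarce to test. H2-DMa, the alpha chain of H2-M (chromosome 17, 34119541 to 34139101, plus strand), had 3.35, 3.65 and 3.87 FPKM with etelcalcetide and 1.73, 2.28 and 2.14 FPKM with RANKL alone, without overlap. Its log2 fold change was 0.72 (SE 0.126, limma adjusted p 0.00142). Of its exon length 10.4% overlaps Brd2 on the opposite strand, a bromodomain gene that was itself higher, at 65.6 ± 2.07 FPKM with etelcalcetide and 46.9 ± 2.03 FPKM with RANKL alone (SD, n = 3 each). Whether the libraries kept strand is not stated, so reads of that stretch cannot be told apart.

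Its beta chain exists as a pair of near copies. The longest coding transcripts of H2-DMb1 and H2-DMb2 were 94.3% identical over 1211 aligned bases, and 26.6% of the 50-base stretches of H2-DMb1 also occur in H2-DMb2, so their counts could be split by the authors' counting and are uncertain. H2-DMb1 (chromosome 17, 34153072 to 34160230) had 7, 3 and 4 reads with etelcalcetide and 6, 4 and 6 with RANKL alone, below the minimum for testing, and the groups overlapped. H2-DMb2 (chromosome 17, 34143307 to 34151555) had 0.779, 0.666 and 0.809 FPKM with etelcalcetide and 0.188, 0.721 and 0.749 FPKM with RANKL alone. Only RANKL replicate 1 stood apart. Its log2 difference of 0.47 did not pass (SE 0.387, limma adjusted p 0.335) and was -0.05 without that library.

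H2-Oa, the alpha chain of the H2-M inhibitor H2-O (chromosome 17, 34092340 to 34095234, plus strand), rose most of the 7 tested members. It had 2.99, 2.53 and 3.85 FPKM with etelcalcetide, against 0.745, 0.716 and 0.440 FPKM with RANKL alone. The groups did not overlap, and the means differed by 4.93-fold (log2 fold change 2.07, SE 0.213, limma adjusted p 7.31e-05). An antisense gene, BC051537, covers 22.8% of its exon length and had 1 read over all libraries. The partner chain H2-Ob, which is no member, had 11, 10 and 13 reads with etelcalcetide and 2, 1 and 0 with RANKL alone. The depth-adjusted ratio of 34 to 3 reads was 10.8 (95% counting interval 3.39 to 54.8), and H2-Ob was too scarce for the test.

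By level per length, the order of the genes differed between the groups. With etelcalcetide, Cd74 was followed by H2-DMa and H2-Oa, whose libraries overlapped, then by H2-Eb1 and H2-Ab1, which also overlapped, then by H2-DMb2, and last by H2-DMb1, H2-Aa and Ciita, whose ranges ran into each other. With RANKL alone, Cd74 was followed by H2-Eb1 and then H2-DMa, which did not overlap, then by H2-Ab1 and H2-Aa, which did, then by H2-Oa and H2-DMb2, and last by H2-DMb1 and Ciita, both pairs overlapping; the low value of H2-DMb2 in RANKL replicate 1 also fell within the range of H2-DMb1. By this measure H2-Aa stood beside its partner H2-Ab1 with RANKL alone and beside the scarcest members with etelcalcetide. The length used is that of all merged exons, 3798 bases for H2-Aa and 2568 for H2-Ab1. Their longest coding transcripts have 1128 and 1212 bases, so the order between genes could differ with another length.

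Ratios within a library do not depend on scaling between libraries, and 5 were compared. H2-Ab1 to H2-Aa was 9.12, 3.35 and 6.84 with etelcalcetide, against 1.51, 1.15 and 0.764 with RANKL alone, a log2 difference of 2.44. Cd74 to H2-Aa was 5211, 1943 and 4338 with etelcalcetide, against 199, 170 and 141 with RANKL alone, a log2 difference of 4.39. Cd74 to H2-Ab1 was 571, 580 and 634 with etelcalcetide, against 132, 148 and 184 with RANKL alone, a log2 difference of 1.96. The groups did not overlap for these or for Ciita to Cd74 (log2 difference -2.54). Each of them had a two-sided exact permutation p of 0.1, the smallest that 3 against 3 allows, and 0.125 adjusted over the 5. Ratios of other gene pairs were not compared, so this lack of overlap does not set these ratios apart. H2-DMa to H2-DMb1 overlapped between groups (log2 difference 1.08, exact p 0.2).

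**Figure D3:**
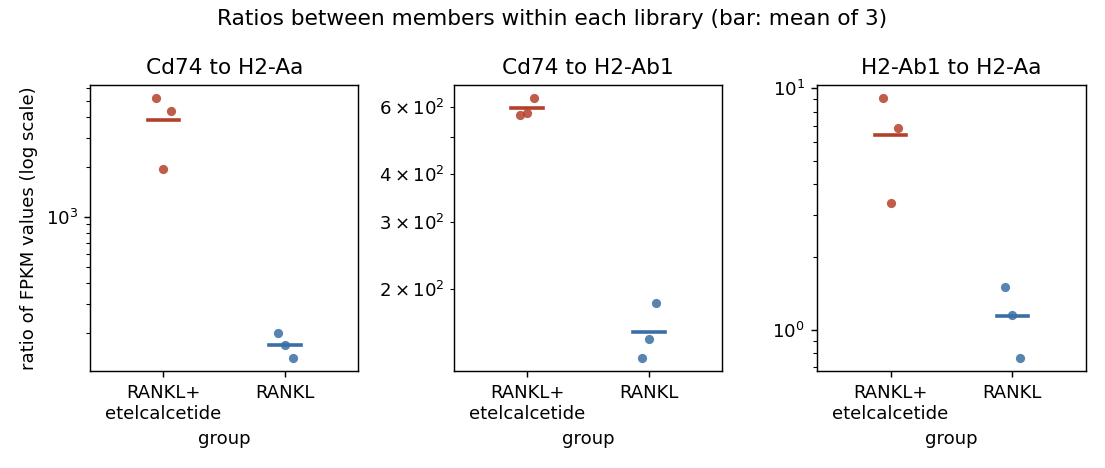
Ratios of FPKM between member genes within each library on log axes, with RANKL+etelcalcetide left of RANKL and bars at the mean of 3. For all 3 ratios every etelcalcetide library lies above every RANKL library; Cd74 to H2-Aa is 1943 to 5211 with etelcalcetide and 141 to 199 with RANKL alone.

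The class II genes lie together on chromosome 17, interleaved with class I presentation genes. Within 100 kb of a member on that chromosome lay 16 other protein-coding genes, of which 10 were tested. Of these, 8 were higher, against 26% of all tested genes, and 2 did not pass, with a median log2 fold change of 1.45. H2-K1, Psmb9, Tap1, Psmb8 and Tap2, which rose, also belong to the class I list below, so the counts are not independent. Ring1 and Brd2 rose by 0.43 and 0.41, while Rxrb (0.10) and Slc39a7 (0.01) did not pass. Col11a2 rose by 1.70 and passed the minimum only through the etelcalcetide libraries. Between H2-DMb1 and H2-Ab1 stood Psmb9, Tap1, Psmb8 and Tap2, the immunoproteasome subunits and peptide transporter of class I loading, with log2 fold changes of 1.45, 1.498, 1.44 and 1.52 and limma adjusted p values of 2.61e-05, 1.35e-06, 3.05e-06 and 2.93e-06. Psmb8 and Tap2 share 14.7% and 18.5% of their exon length with overlapping genes. Past H2-Ob, next in genome order, came the 3 chains that fell. Around Ciita, 3 neighbours were tested and Clec16a was higher (log2 fold change 0.45, limma adjusted p 0.000382), while Dexi, which overlaps 3.45% of Ciita's exon length, had 1.81 ± 0.646 FPKM with etelcalcetide and 1.65 ± 0.0609 FPKM with RANKL alone (SD, n = 3 each). Around Cd74, 3 neighbours were tested and Ndst1, a heparan sulfate enzyme, was lower (log2 fold change -0.68, limma adjusted p 0.0115).

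**Figure D4:**
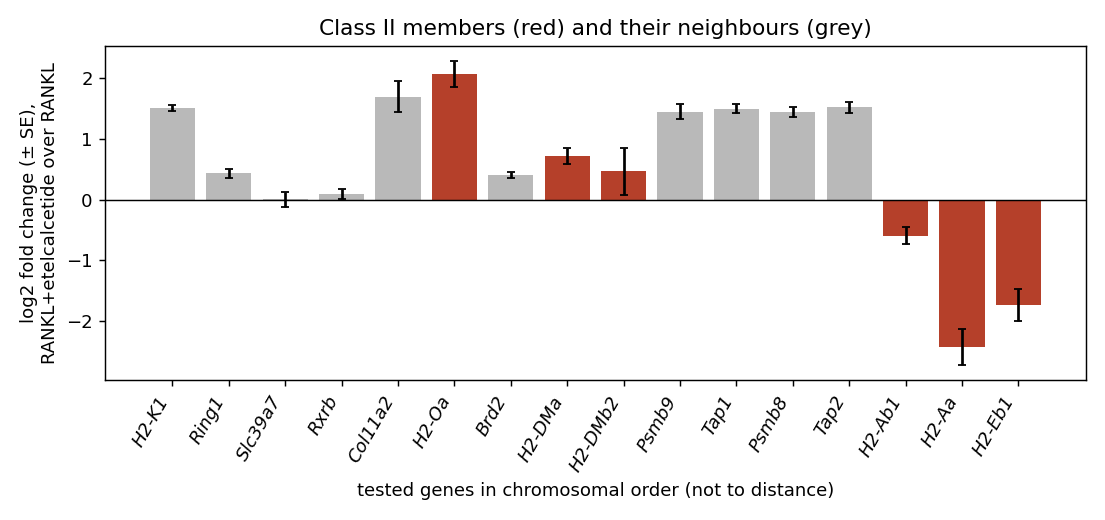
Log2 fold change (± SE) of RANKL+etelcalcetide over RANKL for tested members (red) and tested neighbours (grey) on chromosome 17, in genome order and not to distance. Psmb9, Tap1, Psmb8 and Tap2 rise by 1.44 to 1.52, and the next tested genes, H2-Ab1, H2-Aa and H2-Eb1, are at -0.59, -2.43 and -1.73.

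Genes known to induce Ciita were higher. Of 10 genes of the interferon-gamma route and the myeloid factors, all tested, 9 rose, against 26% of all tested genes, and Jak1 did not pass; their median log2 fold change was 0.57, beside -0.01 over all genes. Irf1, the interferon-induced activator of the Ciita promoter, had 16.7 ± 1.29 FPKM with etelcalcetide and 6.45 ± 0.862 FPKM with RANKL alone (log2 fold change 1.29, limma adjusted p 1.33e-05). Jak2, the kinase of the interferon-gamma receptor, had 12.2 ± 0.612 FPKM with etelcalcetide and 5.65 ± 0.783 FPKM with RANKL alone (1.03, 6.01e-05). The receptor chain Ifngr1 and the promoter-binding factor Usf1 rose by 0.64 and 0.59. The myeloid factors Spi1 and Irf8 rose by 0.28 (limma adjusted p 0.00314) and 0.32 (0.0185), the call on Irf8 being lost on leaving out RANKL replicate 2 or etelcalcetide replicate 2 or 3 (adjusted p at most 0.0732).

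Among 9 tested repressors of Ciita or of its chromatin, 4 fell, 1 rose and 4 did not pass (median -0.15), close to the 53% of all tested genes that changed. Prdm1, which encodes the Ciita repressor BLIMP-1, had 0.163, 0.130 and 0.0661 FPKM with etelcalcetide, against 0.505, 0.802 and 0.703 FPKM with RANKL alone. The groups did not overlap (log2 fold change -1.87, SE 0.278, limma adjusted p 0.000591), but Prdm1 passed the minimum only through the RANKL libraries. The histone deacetylase Hdac2, the methyltransferase Ezh2 and the DNA methyltransferase Dnmt1 fell by 0.48, 0.37 and 0.26 on the log2 scale, all called under every alternative run. Sin3b, a deacetylase scaffold, rose by 0.29, a call lost in 5 of 15 alternatives. Socs1, an inhibitor of interferon signalling, was below the minimum at 0.293 ± 0.105 FPKM with etelcalcetide and 0.182 ± 0.0453 FPKM with RANKL alone (SD, n = 3 each).

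Genes for the proteins that bind the X and Y boxes and for the partners of CIITA came next. Of 12 genes, all tested, 4 rose, 1 fell and 7 did not pass, with a median log2 fold change of 0.13, in a comparison where 53% of all tested genes changed. With library totals alone 8 of the 12 were called. Rfx5, the DNA-binding RFX subunit, had 8.15 ± 0.112 FPKM with etelcalcetide and 6.61 ± 0.162 FPKM with RANKL alone (0.22, limma adjusted p 0.0198), with 26.8% of its exon length shared with another gene. Rfxank, an RFX subunit, had 1.55 ± 0.218 FPKM with etelcalcetide and 0.967 ± 0.211 FPKM with RANKL alone (0.56, 0.0272), with 33.8% shared. Rfxap, the third subunit, did not pass (0.16, 0.200). The acetyltransferases Crebbp and Kat2b rose by 0.22 and 0.27, and Nfyb, an NF-Y subunit, fell by 0.39 (limma adjusted p 0.00692). Each of the 4 rises lost its call on leaving out some single library: 2, 2 and 3 of the 12 were called without etelcalcetide replicate 1, 2 and 3, against 5 with all libraries.

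Of 11 genes for the processing of the invariant chain and of antigens for class II, all tested, 4 rose, 3 fell and 4 did not pass, with a median of 0.01. Such counts lie near the shares over all tested genes, 26% higher and 27% lower. Ctss, the cathepsin that makes the last cuts in CD74, had 240 ± 12.7 FPKM with etelcalcetide and 225 ± 6.54 FPKM with RANKL alone and did not pass (log2 fold change 0.01, limma adjusted p 0.846), nor did Lgmn (-0.15, 0.105) or Sppl2a (0.10, 0.369), which act on either side of that step. Ifi30, the thiol reductase GILT that opens disulfides of antigens, rose to 516 ± 17.9 FPKM with etelcalcetide, against 330 ± 27.9 FPKM with RANKL alone (0.57, 0.000181). Cathepsin E, encoded by Ctse, had 3.91 ± 0.345 FPKM with etelcalcetide and 0.682 ± 0.108 FPKM with RANKL alone (2.29, 4.09e-06), and Ctsh and Ctsz rose by 3.67 and 0.43, Ctsh having passed the minimum only through the etelcalcetide libraries. Ctsl, Ctsb and the cathepsin inhibitor Cst3 fell by 0.37, 0.26 and 0.29, the call on Ctsb being lost with library totals alone (adjusted p 0.0553), with 26.8% of the exon length of Ctsl and 12.8% of that of Ctsb in overlapping genes.

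Among genes of class II traffic and turnover, 7 of 8 were tested; 3 rose, 1 fell and 3 did not pass (median 0.03), again close to the 53% over all tested genes. Cd83, which keeps class II molecules at the surface by opposing the ubiquitin ligase MARCH1, had 57.5, 64.7 and 70.9 FPKM with etelcalcetide, against 20.9, 22.6 and 25.2 FPKM with RANKL alone, without overlap (log2 fold change 1.41, limma adjusted p 4.26e-06). March1 itself was below the minimum, at 0.0821 ± 0.0338 FPKM with etelcalcetide and 0.127 ± 0.04999 FPKM with RANKL alone (SD, n = 3 each). The tetraspanin Cd63 fell by 1.04 (7.40e-06), whereas its relatives Cd82 and Cd9 rose by 0.40 and 0.30. CD74 is also a receptor for the cytokine MIF, and 4 of 6 genes of that role were tested. Its signalling partner Cd44, the coreceptor Cxcr4 and the MIF homologue Ddt rose by 0.77, 0.65 and 0.66. These were 3 of the 4 tested, against 26% higher over all tested genes. Of the exon length of Ddt 30.01% was shared with another gene, and Mif did not pass (0.04, limma adjusted p 0.573).

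The class I pathway gives the closest comparison, since interferon-gamma drives it through overlapping factors. Of its 18 genes, all tested, 16 rose, against 26% of all tested genes, 1 fell (Pdia3) and 1 did not pass (Erap1), with a median log2 fold change of 1.06. Nlrc5, the relative of CIITA that activates class I genes, had 2.38, 2.14 and 2.31 FPKM with etelcalcetide, against 1.66, 1.36 and 1.51 FPKM with RANKL alone (0.49, limma adjusted p 0.00786). The groups did not overlap. Ciita had fewer reads with etelcalcetide, but it was below the minimum for testing and its call depended on the model. H2-K1, a class I heavy chain, rose by 1.51 (1.46e-07) and Tapbp, the loading bridge tapasin, by 1.13 (9.11e-07), with 29.0% of the exon length of Tapbp in overlapping genes. Class I heavy chains are close copies, so their separate values are uncertain. The difference between the class I and class II lists was not tested as such.

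**Figure D5:**
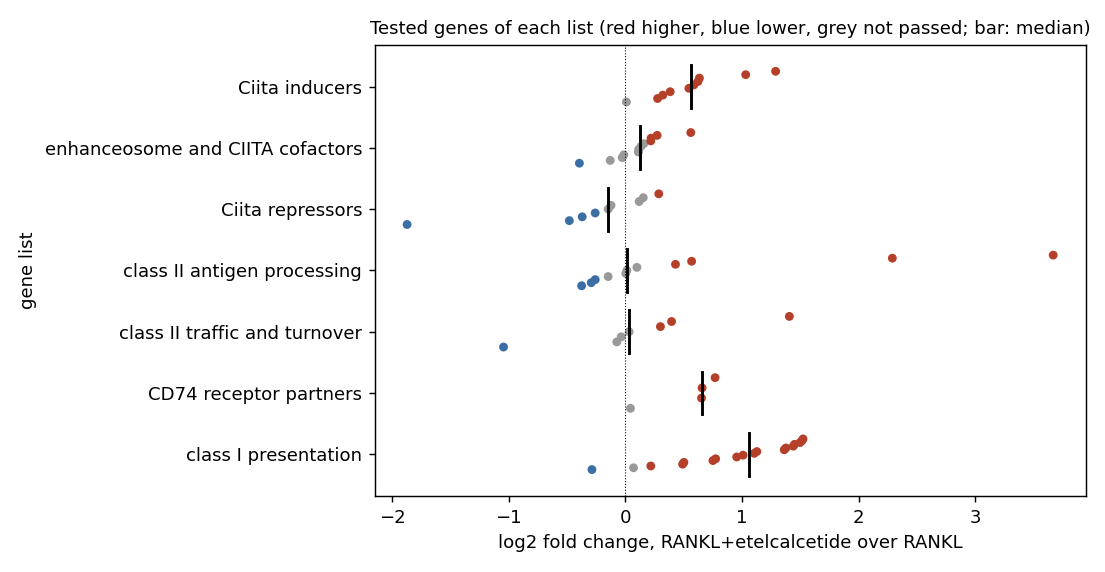
Log2 fold change of RANKL+etelcalcetide over RANKL for the tested genes of 7 lists around the pathway, 1 point per gene and a bar at the median. Genes inducing Ciita and class I genes lie mostly to the right (medians 0.57 and 1.06), and the enhanceosome, processing and traffic lists lie around 0 (medians 0.13, 0.01 and 0.03).

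Markers of other antigen-presenting cells were checked because those cells carry class II RNA. Of 6 B cell markers none reached the minimum; Ms4a1 and Pax5 had no read, and the summed level was 0.567 to 0.984 FPKM with etelcalcetide and 0.130 to 0.432 FPKM with RANKL alone. Of 6 T and NK cell markers none was tested and 4 had no read, with sums of 0 to 0.0561 FPKM with etelcalcetide and 0.109 to 0.211 FPKM with RANKL alone. Of 9 dendritic cell markers 2 were tested: Zbtb46 rose by 1.63 (limma adjusted p 3.89e-05) and Itgax did not pass, Cd209a and Dpp4 had no read, and the sums were 9.79 to 11.03 FPKM with etelcalcetide and 7.20 to 9.99 FPKM with RANKL alone. Macrophage markers were abundant, with sums of 2801 to 2963 FPKM with etelcalcetide and 2507 to 2667 FPKM with RANKL alone. Of the 6 tested, 3 rose (Adgre1, Fcgr1 and Itgam) and 3 did not pass. Over all tested genes 26% rose and 53% changed. Of 7 osteoclast markers, all tested, 5 fell, against 27% of all tested genes, and 2, Dcstamp and Mmp9, did not pass. Their median log2 fold change was -4.92. Those that fell were Ctsk (-8.40), Atp6v0d2 (-6.10), Oscar (-5.26), Acp5 (-4.92) and Nfatc1 (-1.33). Of these 5, 3 passed the minimum only through the RANKL libraries. Sums over the 7 were 203 to 217 FPKM with etelcalcetide and 387 to 531 FPKM with RANKL alone. Of 6 markers of fibroblasts, endothelium and epithelium none was tested, with sums of 0.0435 to 0.0984 FPKM with etelcalcetide and 0.489 to 0.751 FPKM with RANKL alone. The part of these shifts in the class II values was not tested.

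The genes whose profile over the 6 libraries lay nearest to a member's, by distance between centred log2 values, were named for each tested member. For Cd74 they were Selenon, Lrp10 and Kdm6b, at distances of 0.0775, 0.0883 and 0.0923. For H2-Oa they were Gm10825, Nr4a2 and Fbxo2 at 0.441 to 0.483. For H2-DMa they were Khk, Chrnb2 and Capn1 at 0.108 to 0.128. For H2-Aa they were Gm29340, Cth and Tmem204 at 0.595 to 0.715. For H2-Eb1 they were Timp2, Gm26917 and Pltp at 0.436 to 0.581, and for H2-Ab1 Mak16, Nup43 and Cfdp1 at 0.0552 to 0.103. For H2-DMb2 they were Gm15421, Efna1 and F12 at 0.440 to 0.546.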

How the data were processed

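The authors deposited 1 table of FPKM per library (fragments scaled by exon length and by assigned reads), with 55536 gene IDs. HISAT2 2.1.0, featureCounts 1.6.0, Trimmomatic 0.38 and DESeq2 1.22.1, beside CASAVA, FastQC and MultiQC, are named in no stated role or order, per the submitters' processing notes. Those notes name the build GRCh38, yet all IDs are those of mouse GENCODE M21, from which names, coordinates and exon lengths were taken. FPKM times merged exon length gave whole reads for 100% of values (tolerance 0.01), with totals of 13742913 to 16264432 reads in RANKL+etelcalcetide libraries and 14530043 to 15877596 in RANKL libraries; 1 read on a kilobase of exon is worth 0.0615 to 0.0728 FPKM. Samples were grouped by their titles.

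Trimmed-mean-of-M-values factors from those reads (30% of M and 5% of A trimmed) scaled the libraries. After adding 0.1 FPKM, limma 3.58.1 (R 4.3.3) was fitted to the log2 values by group, its prior variance following the mean. Genes with 0.5 FPKM and 10 reads in at least 3 libraries were tested, and Benjamini-Hochberg adjusted p under 0.05 was called. All adjusted p values, including those given in brackets after a fold change, come from this fit unless another is named. Printed FPKM are deposited values; ± gives the SD of 3 libraries. The steps were tested on simulated data in which few genes changed and scarce genes were left unchanged. That run therefore does not cover changes of scarce genes or scaling where most genes change. Ratios and sequences used Python 3.11.15, scipy 1.17.1, pandas 2.3.3 and numpy 2.4.6. Counting intervals are exact conditional 95% intervals. A count model was planned only if counts had been deposited.

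The members and the 16 gene lists were chosen with earlier results of these data known. Named were all 9 members; from each other list up to 4 tested genes with the smallest adjusted p, and genes that control Ciita or load class II peptide; protein-coding genes within 100 kb; and the 3 nearest profiles. Other genes named in the counts were chosen after their values were seen. Some genes of these lists are not reported here. Alternatives covered scaling, minimum, pseudocount, limma-voom on the recovered reads, a replicate block and leaving out each library. Same-numbered libraries deviated from their group means with correlations of 0.0744, -0.02 and -0.03, so their deviations showed no pairing by number. With 3 libraries a group, this cannot show that same-numbered libraries were handled separately. No 2 libraries of a group agreed within counting noise (mean chi-square 5.38 to 29.0 a gene), so none was treated as a copy of another; this does not show separate cultures.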

Additional observations from a re-analysis of the deposited data

How the results depend on the processing

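The calls on H2-Aa, H2-Eb1, H2-DMa, H2-Oa and Cd74 kept their direction and their side of the threshold under every alternative that could be run, with log2 fold changes of -3.04 to -0.98, -2.00 to -1.19, 0.54 to 0.81, 1.28 to 2.22 and 1.24 to 1.39. H2-Aa and H2-DMb2 could not be tested with a minimum of 1 FPKM. H2-Ab1 ranged from -0.67 to -0.34 and lost its call only with the replicate block and no minimum, a setting added after the data were seen (-0.59, limma adjusted p 0.0944). The block alone changed no call on a member and gave 5709 changed genes against 5894. Ciita had a log2 difference of -0.60 with a pseudocount of 0.1 FPKM, -1.10 with 0.01 and -0.12 with 1; limma-voom with no minimum, also added later, gave -1.21, and leaving out a library gave -0.76 to -0.37. The number of other class II genes called was 2 with no minimum against 1, H2-Ob being the second. Enhanceosome genes called were 8 with library totals alone against 5, and 2 to 4 on leaving out a library. Library totals alone also gave 3558 higher and 2272 lower genes over all tested, against 2896 and 2998 with scaling, and left the direction of every tested member as it was. Depth limits Ciita, H2-DMb1 and H2-Ob, each under 30 reads in every library, and H2-Aa with etelcalcetide, the called member with the largest SE.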
